A study of Homo sapiens with 12 samples.

Results

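The nuclear genes for the protein subunits of the respiratory chain and of ATP synthase were followed in 4 human acute myeloid leukaemia lines treated with DMSO or with either of a pair of thiazolidinediones. The set was chosen by symbol among protein-coding genes. For complex I it holds NDUFA, NDUFB, NDUFC, NDUFS and NDUFV genes with a number directly after these letters, so NDUFAB1 was left out. It also holds genes of complex II (SDHA to SDHD), complex III (UQCR genes and CYC1) and complex IV (COX4 to COX8 genes). Complex V is covered by ATP5F, ATP5M and ATP5P genes. The rule gave 89 genes of the 57865 in the annotation. Of these, 80 passed the low-count filter and were tested among 15424 genes: 36 of 37 for complex I, 4 of 4 for complex II, 9 of 10 for complex III, 13 of 19 for complex IV and 18 of 19 for complex V. NDUFA4 and its paralog NDUFA4L2 were placed with complex IV, where the NDUFA4 protein resides.

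Complexes I and II pass electrons from NADH and succinate to ubiquinone, complex III hands them to cytochrome c, and complex IV reduces oxygen. Complexes I, III and IV pump protons, and complex V uses the resulting gradient to make ATP. A few subunits are encoded by mitochondrial DNA. The genes described here belong to the nuclear remainder, whose proteins are imported and assembled with the mitochondrial ones. Acute myeloid leukaemia cells are known to lean on oxidative phosphorylation.

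KG-1a, MV4-11, OCI-AML3 and MOLM-14 are established lines grown from patients with acute myeloid leukaemia. Each received DMSO, which is the vehicle, 10 µM pioglitazone or 10 µM darglitazone for 12 h, and each of the 12 combinations was 1 total-RNA library depleted of ribosomal RNA. Both drugs are agonists of the nuclear receptor PPARγ. The labels do not say that libraries came from separate cultures. For a line the 3 libraries are its 3 treatments, and for a treatment the 4 libraries are the 4 lines, so p-values measure only the spread between these libraries.

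Library totals ran from 1.1 M to 64.24 M estimated counts, and OCI-AML3 with pioglitazone was the shallowest. In that library 6.175% of the counts fell on the ribosomal-RNA-derived gene FP671120.3, against 23.537% in KG-1a with pioglitazone and 0.042% to 0.542% in the other 10. Of 93 genes specific to KG-1a, the median stood at 2.04% of its KG-1a level in OCI-AML3 with pioglitazone. Of 9 genes specific to MOLM-14, the median stood at 2.36% and 2.21% of its MOLM-14 level in MV4-11 with DMSO and darglitazone. Of 6 genes specific to MV4-11, the median stood at 4.1% of its MV4-11 level in KG-1a with darglitazone. The summed level of 10 myeloid markers was 1205 to 3345 counts-per-million (CPM) in every library, and of 5 erythroid and megakaryocytic and 5 lymphocyte markers HBB, HBA1, PF4 and MS4A1 were at 0 throughout. Others of these lists were higher in KG-1a: ITGA2B, a megakaryocyte integrin, stood at 221 to 304 CPM there and at most 9.86 CPM elsewhere, CD79A at 10.6 to 18.1 CPM and at most 1.35, CD3E at 11.5 to 14.6 CPM and at most 0.0857, and CD3D at 8.46 to 13.7 CPM and at most 1.75. CD34, a marker of immature cells, stood at 599 to 715 CPM in KG-1a and at 0.0747 to 7.9 CPM elsewhere. It belongs to the 10 myeloid markers, as does PTPRC, at 466 to 542 CPM in KG-1a and at most 385 CPM elsewhere. Lower in KG-1a were LYZ (21.5 to 77.1 CPM against 156 to 2127) and CEBPA (38.7 to 84.1 against 145 to 511). So were FLT3 (0.604 to 16.8 against 114 to 521) and MPO (1.41 to 3.51 against 6.03 to 64.8). CD33, SPI1, KIT and RUNX1 overlapped the other lines. The part of these markers' cell states in the KG-1a results below was not tested. Results below are given with and without the pioglitazone libraries of OCI-AML3 and KG-1a where these change them.

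Levels between genes were compared per length, as counts over spliced transcript length, scaled to TPM (transcripts-per-million) among nuclear protein-coding genes. On this scale the 89 genes together made up 1.89% to 2.6% of nuclear protein-coding transcripts. Summed over the genes, this level averaged 19589 ± 598 in KG-1a, 21485 ± 230 in MOLM-14, 22681 ± 1383 in MV4-11 and 23497 ± 2388 in OCI-AML3 (SD, n = 3 libraries). KG-1a was the lowest of the 4 lines in every treatment, at 20121, 19705 and 18941 with DMSO, pioglitazone and darglitazone. The order of MOLM-14, MV4-11 and OCI-AML3 did not hold beyond their spread: the OCI-AML3 libraries ran from 25997 with DMSO to 21240 with darglitazone, across the whole range of MV4-11. By complex, KG-1a was the lowest in every treatment for complexes II, III and V. For complex I it was not, at 6392 with DMSO against 6289 in MOLM-14. With pioglitazone and darglitazone its complex I sums were 6275 and 6211, against 5800 and 6104 in OCI-AML3. For complex IV with pioglitazone it stood at 5187, against 4831 in MV4-11.

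**Figure D1:**
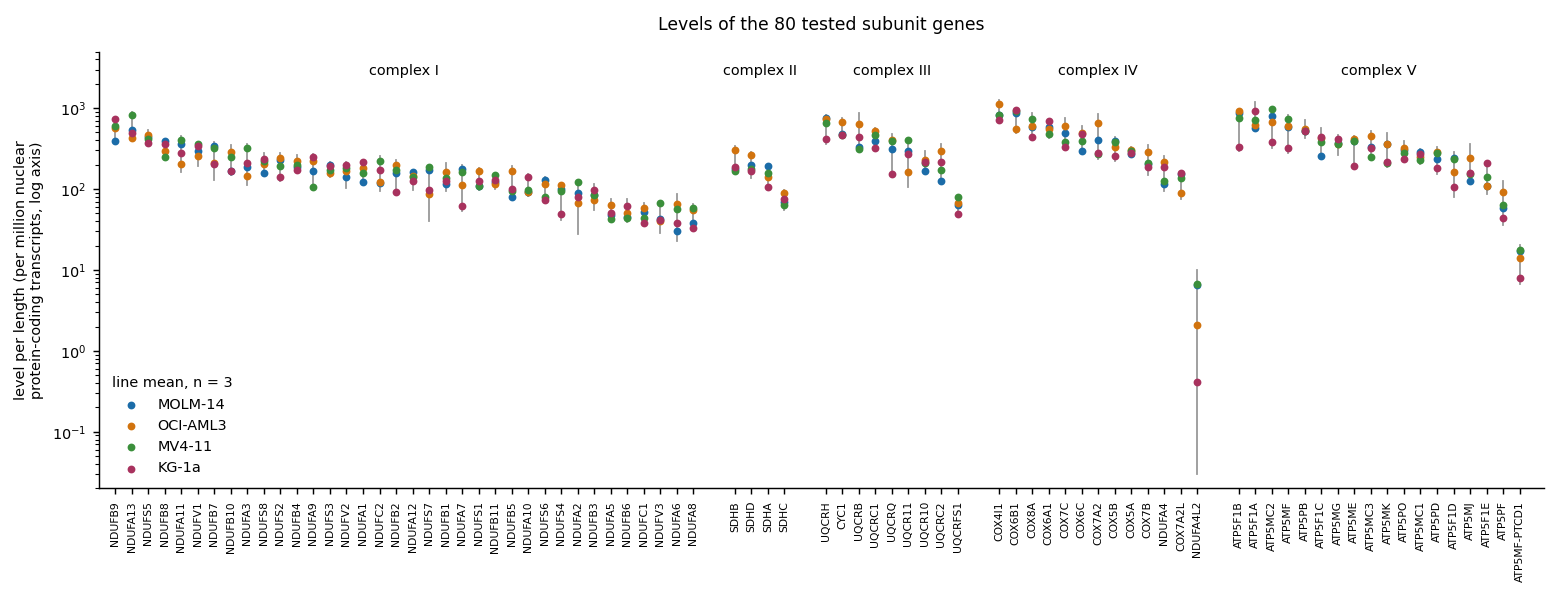
Level per length of the 80 tested subunit genes on a log axis, in TPM among nuclear protein-coding genes; coloured points are line means (n = 3 libraries) and grey bars run from the lowest to the highest of the 12 libraries. Mean levels run from 3.9 for NDUFA4L2, far below the rest, to 869 for COX4I1.

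On this per-length scale the most abundant subunit gene was COX4I1, the main form of the regulatory subunit 4 of cytochrome c oxidase, at a mean of 869 (range 663 to 1251 over 12 libraries). COX6B1, another complex IV subunit, followed in that complex at 821. In complex V the leaders were ATP5F1B, the catalytic β subunit of the F1 head, at 717, and ATP5MC2, which encodes the proton-carrying c ring, at 707. ATP5F1A, the α subunit, also averaged 707 and was the highest complex V gene in KG-1a, at 920; its counts are described separately below. In complex III they were UQCRH, the hinge protein beside cytochrome c1, at 639, and CYC1, cytochrome c1 itself, at 522. In complex I they were NDUFB9 at 576 and NDUFA13 at 569, both membrane-arm subunits. These ranks depended on the length used. With counts over the longest coding transcript, COX4I1 averaged 648, below COX6B1 at 1239, ATP5F1B at 1037 and UQCRH at 995. In complex I, NDUFS5 at 650 and NDUFA13 at 578 then stood above NDUFB9 at 406.

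In complex II SDHB, its iron-sulfur subunit, averaged 209, SDHD, a membrane anchor, 200, SDHA, the flavoprotein, 149, and SDHC, the other anchor, 74.1. The highest complex II gene lay below the leaders of the other complexes, but its median gene did not lie below that of complex I in MOLM-14 (183 against 142), MV4-11 (162 against 158) or OCI-AML3 (199 against 149). The lowest tested gene of complex III was UQCRFS1, the Rieske iron-sulfur protein, at 64.5, and that of complex I was NDUFA8 at 46.3. Subunit genes of a complex therefore did not share a level: within complex I, tested genes ranged from NDUFA8 at 46.3 to NDUFB9 at 576.

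Several complex IV subunits have tissue-restricted second genes, and here the widely expressed gene of each set carried the signal. COX4I2, COX6A2, COX7A1, COX7B2 and COX8C had 0 counts in all 12 libraries, where 3 counts correspond to between 0.047 and 2.738 CPM. COX6A2 and COX7A1 are the forms of heart and skeletal muscle, COX4I2 is known from lung, and COX8C and COX7B2 from testis. Their counterparts averaged 577 for COX6A1, 402 for COX7A2, 221 for COX7B and 593 for COX8A. COX6B2, the testis form of subunit 6B, reached at most 22.4 counts in a library and a mean level of 0.155, against 821 for COX6B1. The other untested genes were also near 0: UQCRHL, a near-identical copy of UQCRH, had at most 42.1 counts, the readthrough gene NDUFC2-KCTD14 at most 21 and ATP5MGL at most 11.3. Reads shared by UQCRH and UQCRHL, or by ATP5MF and the readthrough gene ATP5MF-PTCD1, may have been split between them, so their separate values are uncertain.

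NDUFA4, a complex IV subunit despite its name, averaged 162, with 217 ± 45.7 in OCI-AML3, 189 ± 28.9 in KG-1a, 124 ± 25.6 in MV4-11 and 117 ± 11.3 in MOLM-14 (SD, n = 3). Its paralog NDUFA4L2, known as a hypoxia-induced gene, was low, with at most 136 counts in a library. It was at or near the detection floor in KG-1a and in OCI-AML3 with pioglitazone. In the order DMSO, pioglitazone, darglitazone, it stood at 0, 0.101 and 0.628 CPM in KG-1a, at 0.792, 1.75 and 1.09 CPM in OCI-AML3, at 4.37, 3.69 and 3.63 CPM in MOLM-14 and at 2.38, 6.21 and 4.15 CPM in MV4-11. The KG-1a libraries lay below all others, and the gene was called lower there and higher in MOLM-14 and MV4-11 in the comparisons between lines below; with so few counts the fitted folds depend on the prior count and are not given. The MOLM-14 call was lost without its DMSO library (edgeR adjusted p = 0.0826) and without KG-1a (0.0821), and the MV4-11 call without KG-1a (0.0765).

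The c ring is encoded by 3 genes whose mature proteins are the same and whose import sequences differ. ATP5MC2 was the highest of them in MOLM-14 (801 ± 39.2, against 334 ± 14.4 for ATP5MC3 and 291 ± 24.6 for ATP5MC1), OCI-AML3 (669 ± 60.7, against 448 ± 67.1 and 248 ± 40.4) and MV4-11 (976 ± 25.7; SD, n = 3). In KG-1a the 3 genes were close, at 381 ± 50.2 for ATP5MC2, 322 ± 56.5 for ATP5MC3 and 271 ± 59.6 for ATP5MC1. This order depended on the length used. Over the longest coding transcript the means of the 12 libraries were 378 for ATP5MC1, 337 for ATP5MC2 and 78.6 for ATP5MC3.

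Promoters of the family share short elements that the rule did not use. RefSeq promoters (GRCh38.p14, 250 bases before to 50 after the start) were found for 69 of the 89 genes and searched on both strands for 4 cores. These were GCATGCGC for NRF1, a known activator of respiratory genes, CCGGAAG for ETS factors such as GABPA, AAGATGGC for YY1 and TGACGTCA for the cyclic-AMP response element. The NRF1 core lay in 13 of 69 promoters (18.8%), against 3.27% of 27305 promoters of all kinds and 5.4% of 10228 promoters of other tested protein-coding genes. The ETS core lay in 20 (29%), against 10.7% and 19.7%; the YY1 core in 11 (15.9%), against 3.03% and 5.32%; and the cyclic-AMP element in 5 (7.25%), against 1.98% and 3.24%. At least 1 of the 4 was present in 37 of 69 (53.6%), against 17.1% and 29.7%. Among tested genes, the NRF1 core was found in 2 of 3 searched promoters of complex II and 4 of 13 of complex V, and in 0 of 7 of complex III. Median GC content was 61.0% in the subunit promoters, 58.3% in all promoters and 65.0% in those of other tested genes. A match describes the letters only and is not a measured binding site.

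The stretches below come from the 6 tested genes whose 250 bases before the start hold at least 2 different cores. They are examples of promoters with several cores and are not typical of the set. Over the whole promoter, at least 2 of the 4 cores lay in 8 of 69 (11.6%). The share was 1.8% of all promoters and 3.77% of those of other tested protein-coding genes. Each runs 5′ to 3′ on the gene's strand, with capitals marking matches; GCGCATGC and CTTCCGG are the NRF1 and ETS cores read from the other strand. In SDHD, matches on both strands overlap to form GCGCATGCGC.
SDHB, chr1:17054142-17054244, minus strand: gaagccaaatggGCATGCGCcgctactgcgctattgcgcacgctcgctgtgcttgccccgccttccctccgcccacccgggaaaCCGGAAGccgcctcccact
SDHD, chr11:112086751-112086814, plus strand: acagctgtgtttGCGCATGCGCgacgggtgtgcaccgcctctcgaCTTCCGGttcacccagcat
COX5B, chr2:97645914-97646043, plus strand: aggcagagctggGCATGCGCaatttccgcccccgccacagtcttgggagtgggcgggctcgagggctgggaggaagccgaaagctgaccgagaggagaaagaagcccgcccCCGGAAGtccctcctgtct
COX6A1, chr12:120437883-120438112, plus strand: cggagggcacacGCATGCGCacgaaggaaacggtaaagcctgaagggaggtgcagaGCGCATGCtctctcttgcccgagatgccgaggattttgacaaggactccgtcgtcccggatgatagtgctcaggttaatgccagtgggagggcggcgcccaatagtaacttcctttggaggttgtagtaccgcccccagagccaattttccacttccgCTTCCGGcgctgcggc
ATP5ME, chr4:674335-674446, minus strand: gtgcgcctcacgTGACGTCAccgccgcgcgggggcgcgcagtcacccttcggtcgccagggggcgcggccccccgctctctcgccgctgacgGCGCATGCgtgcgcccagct
ATP5PF, chr21:25735066-25735186, minus strand: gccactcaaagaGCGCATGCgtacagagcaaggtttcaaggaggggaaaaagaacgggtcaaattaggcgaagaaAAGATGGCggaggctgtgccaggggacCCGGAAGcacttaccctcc
In SDHB, SDHD, COX5B, COX6A1 and ATP5PF the NRF1 core lies farther from the start than the ETS core, and in ATP5PF the YY1 core sits between them.

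The lines differed in most subunit genes. With edgeR's quasi-likelihood test and Benjamini-Hochberg adjustment over all tested genes, 65 of 80 differed between the 4 lines at an adjusted p under 0.05, against 72.6% of all genes tested; without the KG-1a libraries 34 passed, and the count over all genes went from 11198 to 8223. The 15 that did not pass were NDUFS8, NDUFB1, NDUFB3, NDUFB6, NDUFV1, NDUFV2, UQCR10, COX5A, COX6C, ATP5PB, ATP5F1A, ATP5F1C, ATP5F1E, ATP5MG and ATP5MJ.

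KG-1a against the mean of the other 3 lines gave the widest difference. There 43 of the 80 genes were lower and 5 higher, where 27.2% of all tested genes were lower and 26.9% higher. The median log2 fold change of the subunit genes was -0.39, against -0.03 for all tested genes, and it was -0.45, -0.30 and -0.39 with DMSO, pioglitazone and darglitazone. The lower calls covered every complex: 16 of 36 in complex I (median -0.36), 3 of 4 in complex II (-0.54), 6 of 9 in complex III (-0.37), 8 of 13 in complex IV (-0.52) and 10 of 18 in complex V (-0.61). Within complex V they comprised 7 of 10 stalk and membrane genes (median -0.68), 2 of 5 F1 genes and 1 of 3 c-ring genes. For 27 genes all KG-1a libraries lay below all 9 others, and for 1 gene above, where 13.5% and 15.4% of all tested genes did so. Without the pioglitazone libraries of OCI-AML3 and KG-1a, 46 were lower and 3 higher. Protein-coding genes outside the set whose longest coding transcript is under 1000 bases also had a negative median in KG-1a, -0.31 over 521 genes, against 0.01 for 5101 genes over 4000 bases. The subunit genes under 1000 bases had a median of -0.61 (31 genes) and the longer ones -0.32 (49 genes). The part of transcript length in the difference was not tested.

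**Figure D2:**
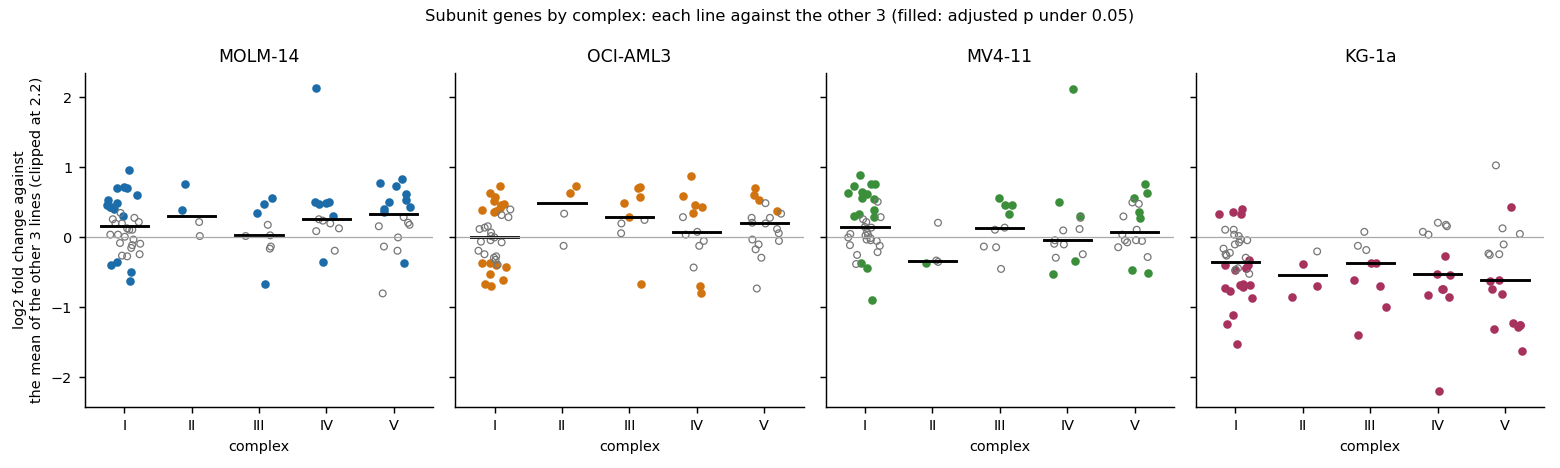
Fitted log2 fold change of each tested subunit gene in a line against the mean of the other 3 lines, by complex; filled points have an adjusted p under 0.05, black bars are medians and values are clipped at 2.2. The 5 KG-1a medians, -0.36 to -0.61, all lie below 0, while those of the other lines lie between -0.34 and 0.48.

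ATP5F1B showed the clearest drop. It stood at 292, 259 and 261 CPM in the 3 KG-1a libraries, at 954, 890 and 919 CPM in MOLM-14, 894, 815 and 862 CPM in OCI-AML3, and 760, 692 and 730 CPM in MV4-11 (each DMSO, pioglitazone, darglitazone). The KG-1a libraries did not overlap any other, and the log2 fold change was -1.62 (SE 0.09, edgeR adjusted p = 9.72e-10). ATP5F1B lies on chromosome 12 at 56638175-56646068, minus strand (GRCh38, GENCODE 29). The c-ring gene ATP5MC2 also separated KG-1a, at 132, 93.6 and 120 CPM, from all other libraries, at 190 to 336 CPM (log2 fold change -1.28). ATP5ME and ATP5MF, small subunits of the membrane part, had fitted log2 fold changes of -1.25 each. ATP5ME stood at 42.5, 30.4 and 32.2 CPM in KG-1a, and the other 9 libraries at 71.1 to 93.7 CPM. The δ subunit of the stalk, ATP5F1D, was lower by -1.31 on the log2 scale.

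Of the 9 complex III genes, 6 were lower in KG-1a. UQCRQ, a small subunit, stood at 39.1, 32.4 and 35.6 CPM against 83.7 to 120 CPM elsewhere (log2 fold change -1.40, SE 0.12, edgeR adjusted p = 1.39e-07). The gene lies on chromosome 5 at 132866560-132868031, plus strand. UQCRH stood at 144, 106 and 126 CPM against 215 to 283 CPM, a log2 fold change of -0.99. Of the core proteins, which resemble processing peptidases, UQCRC1 was lower by -0.61 on the log2 scale and UQCRC2 was not called.

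In complex I the 10 genes of the NADH-oxidising module had 5 lower and 0 higher calls in KG-1a, with a median of -0.45. The 6 genes of the quinone-reducing module had 2 lower and 1 higher, with a median of -0.26. NDUFA7, an accessory subunit of the NADH-oxidising module, stood at 16.1, 18.1 and 18.6 CPM in KG-1a against 24.6 to 72.8 CPM elsewhere (log2 fold change -1.52, SE 0.16, edgeR adjusted p = 1.68e-06). It lies on chromosome 19 at 8308768-8321396, minus strand. NDUFS4, whose loss causes Leigh syndrome, stood at 16.2, 19.2 and 14 CPM against 35.9 to 42.8 CPM (log2 fold change -1.24). NDUFS4 and ATP5ME were chosen for description after their values were seen.

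**Figure D3:**
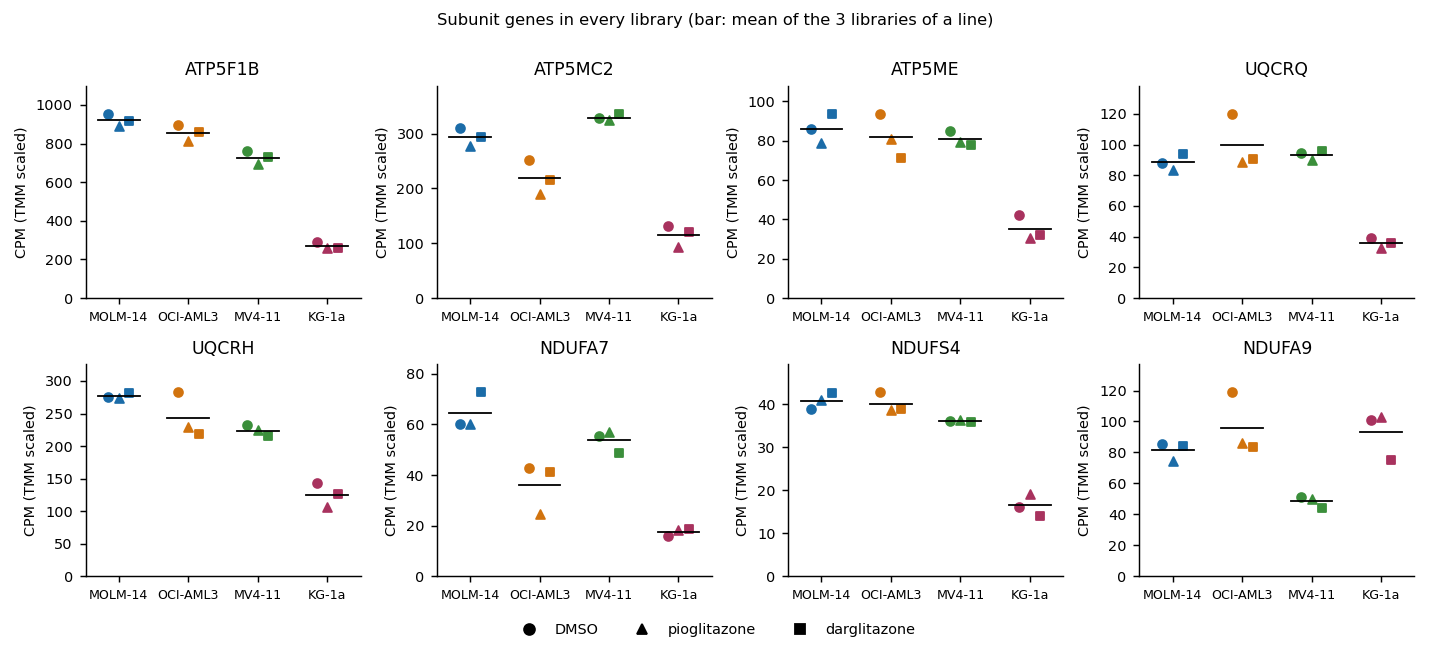
TMM-scaled CPM of 8 subunit genes in every library, by line; symbols give the treatment and bars the mean of the 3 libraries of a line. In the panels for ATP5F1B, ATP5MC2, ATP5ME, UQCRQ, UQCRH, NDUFA7 and NDUFS4 the KG-1a libraries sit below all others, whereas NDUFA9 is lowest in MV4-11, at 44.3 to 51.1 CPM.

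The 5 genes called higher in KG-1a moved little: ATP5F1E, the ε subunit, by 0.43, NDUFA10 by 0.40, NDUFA9 by 0.36, and NDUFA1 and NDUFB9 by 0.34 on the log2 scale. Without any 1 of the KG-1a libraries, 2 genes were higher. NDUFA10 stood at 93.2, 95.9 and 91.1 CPM in KG-1a and at 45.6 to 83.1 CPM elsewhere, without overlap. Without the pioglitazone libraries of OCI-AML3 and KG-1a, ATP5F1E, NDUFA10 and NDUFA9 had edgeR adjusted p-values of 0.107, 0.065 and 0.175. NDUFA9 stood at 101, 103 and 75.4 CPM in KG-1a, overlapping MOLM-14 (74.3 to 85.7 CPM) and OCI-AML3 (83.2 to 119 CPM). Without MV4-11, where NDUFA9 was lowest, its KG-1a log2 fold change was 0.08 (edgeR adjusted p = 0.658). On the per-length scale the KG-1a difference was smaller for the whole set, a median of -0.18 over 80 genes, but all tested protein-coding genes had a median of 0.15 on that scale.

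Other lists of the pathway are read in KG-1a against the same shares of all tested genes, 27.2% lower and 26.9% higher. Of 78 mitochondrial ribosomal protein genes 35 were lower and 5 higher (median -0.32). Of 14 citrate cycle genes 9 were lower and 0 higher (median -0.42), and of 51 assembly factors 16 were lower and 8 higher (median -0.19). Of the 13 subunit genes of mitochondrial DNA 2 were lower and 1 higher (median 0.05). In MOLM-14, 11 of these 13 were higher and 0 lower (median 1.03), and in OCI-AML3 0 were higher and 7 lower (median -0.41). Among regulators, PPARGC1B, a coactivator of respiratory genes, was lower by -0.65, NRF1 by -0.54 and TFAM, which packages mitochondrial DNA, by -0.41 on the log2 scale, with edgeR adjusted p-values of 0.0043, 0.0159 and 0.0166. GABPA, at -0.27, was not called (edgeR adjusted p = 0.0784). ESRRA, a nuclear receptor of the same programme, was at -0.32 (edgeR adjusted p = 0.0452). These single genes do not stand for the list of 14 regulators. Its summed per-length level was not lower in KG-1a, at 522 ± 33.0. It was 502 ± 15.7 in MOLM-14, 500 ± 35.9 in OCI-AML3 and 399 ± 23.6 in MV4-11 (SD, n = 3). CYCS, the cytochrome c gene, was lower by -0.48.

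In the remaining lines higher calls outnumbered lower ones, and KG-1a is among the other 3 lines of each comparison. MOLM-14 had 32 genes higher and 7 lower, against 23.5% and 17.7% of all tested genes; without KG-1a 12 were higher. OCI-AML3 had 26 higher and 11 lower, against 23% and 19.4%; without KG-1a 11 were higher and 15 lower. MV4-11 had 25 higher and 8 lower, against 23.3% and 17.5%; without KG-1a 9 were higher and 15 lower. Single libraries bore on these counts: MOLM-14 had 17 higher without its pioglitazone library and 16 without its darglitazone library, OCI-AML3 13 without its DMSO library, and MV4-11 14 and 13 without its pioglitazone and darglitazone libraries. Calls over all tested genes moved too when 1 library or 1 line was left out. They went from 6352 to between 4404 and 8112 in MOLM-14 and from 6529 to between 5113 and 6358 in OCI-AML3. In MV4-11 they went from 6302 to between 4566 and 7212. The lowest of these all-gene counts came from leaving out a single library, not from leaving out KG-1a. How far the changed subunit counts follow the counts over all genes was not tested. The medians of the 80 genes were 0.21, 0.15 and 0.10, and 0.10, -0.01 and -0.02 without KG-1a. On the per-length scale the MOLM-14 median turned to -0.02, where all tested protein-coding genes had -0.18, while OCI-AML3 had 0.17 and MV4-11 0.06.

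After NDUFA4L2, the largest fold change of a gene called higher in MOLM-14 was that of NDUFA7, at 60.2, 60.1 and 72.8 CPM, above all other libraries (log2 fold change 0.96, SE 0.14, edgeR adjusted p = 5.27e-05). ATP5F1D was higher by 0.84 and ATP5MK, a small membrane subunit, by 0.78, both with libraries that overlapped those of other lines. ATP5MK stood at 76.4, 92.9 and 94.0 CPM in MOLM-14 and at 80.4, 93.9 and 44.3 CPM in OCI-AML3. UQCRC2 was lower in MOLM-14, at 108, 105 and 118 CPM against 137 to 258 CPM elsewhere (log2 fold change -0.66). NDUFB9 and NDUFA1, both of the membrane arm, fell by 0.49 and 0.40 on the log2 scale, but NDUFA1 had an edgeR adjusted p of 0.0805 without the darglitazone library of MOLM-14, 0.0638 without KG-1a and 0.118 with no low-count filter. NDUFA6, of the NADH-oxidising module, had a log2 fold change of -0.62, but its edgeR adjusted p rose from 0.0434 to 0.105 without the DMSO library of MOLM-14 and to 0.263 without the pioglitazone library.

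In OCI-AML3, 2 of the 4 complex II genes were higher. SDHB stood at 191, 137 and 146 CPM against 84.2 to 121 CPM in the other lines (log2 fold change 0.73, SE 0.11, edgeR adjusted p = 0.000125), and SDHD was higher by 0.63. NDUFB5 stood at 87.5, 81.6 and 72.4 CPM against 42.8 to 52.9 CPM (log2 fold change 0.74). COX7A2 and UQCRB had log2 fold changes of 0.88 and 0.72, with libraries that overlapped those of other lines: UQCRB stood at 301 and 335 CPM with DMSO and pioglitazone but at 155 CPM with darglitazone. UQCRB was not called without the DMSO library of OCI-AML3 (edgeR adjusted p = 0.0813) or without its pioglitazone library (0.0755). COX7A2L, a COX7A-related factor that joins complexes III and IV into supercomplexes, was lowest in OCI-AML3, at 56.0, 59.7 and 45.7 CPM against 78.4 to 111 CPM (log2 fold change -0.80, SE 0.12, edgeR adjusted p = 0.000113). COX6B1 stood at 237, 163 and 205 CPM against 298 to 358 CPM, a log2 fold change of -0.69. NDUFA11, a membrane-arm subunit, was also at -0.69, with 82.5, 56.2 and 68.4 CPM. NDUFS7, an iron-sulfur subunit, was at -0.67 with 59.1, 16.7 and 47.6 CPM; its edgeR adjusted p of 0.0345 became 0.054 without the pioglitazone library of OCI-AML3 and 0.149 without the darglitazone library.

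In MV4-11 NDUFA3, NDUFA13 and ATP5MC2 led the rises, at log2 fold changes of 0.89, 0.77 and 0.77. NDUFA13, also known as GRIM-19, stood at 332, 289 and 269 CPM against 125 to 233 CPM elsewhere, without overlap. NDUFA9, a quinone-module subunit, was lower, at 51.1, 50.2 and 44.3 CPM against 74.3 to 119 CPM (log2 fold change -0.89, SE 0.12, edgeR adjusted p = 4.68e-05). ATP5MC3 and COX7A2 were lower by -0.47 and -0.52, COX7A2 with an edgeR adjusted p of 0.112 without the pioglitazone library of MV4-11. ATP5MK was at -0.51, with an edgeR adjusted p of 0.0271 that became 0.0946 without the DMSO library of MV4-11. Without its pioglitazone or darglitazone library the edgeR adjusted p was 0.108 or 0.0983, and with no scaling 0.0933. Without MOLM-14 the log2 fold change of ATP5MK was -0.28 (edgeR adjusted p = 0.281).

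Subunit genes on chromosome 19 were examined after the values were seen. Of the 12 subunit genes there, 10 were tested, and all 10 were called higher in MV4-11 (median 0.56), 7 were called lower and 0 higher in OCI-AML3 (median -0.57), 7 were higher in MOLM-14 and 8 lower in KG-1a. They include NDUFA3, NDUFA7, NDUFA11, NDUFA13, NDUFS7, COX6B1 and ATP5F1D. The 1029 tested protein-coding genes of that chromosome moved alike in MV4-11, with 514 higher, 58 lower and a median of 0.52, and in OCI-AML3, with 101 higher, 440 lower and a median of -0.47. In MOLM-14 the chromosome's genes had 288 higher, 208 lower and a median of 0.09, while the 10 subunit genes had a median of 0.50. In KG-1a the chromosome's genes had 278 higher, 301 lower and a median of -0.08, while the 10 subunit genes had a median of -0.57.

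ATP5F1A encodes the α subunit of the F1 head, and its counts were divided between transcripts differently from library to library. It stood at 746, 747 and 759 CPM in MOLM-14 and 783, 938 and 607 CPM in OCI-AML3. In MV4-11 it stood at 2967, 834 and 1283 CPM, and in KG-1a at 3601, 956 and 2040 CPM, with DMSO, pioglitazone and darglitazone. In MV4-11 with DMSO, 28591 estimated counts were on a coding transcript of 5818 bases and 0 on one of 1945 bases. In MOLM-14 with DMSO, 2601 were on the longer and 19530 on the shorter. KG-1a with DMSO and with darglitazone likewise had 0 on the shorter transcript. On the per-length scale the same libraries ranged less, from 515 to 1199. ATP5F1A was not called in the main comparisons, but it was the only subunit gene called for either drug when no low-count filter was applied. Its pioglitazone value there was a log2 fold change of -0.92 (edgeR adjusted p = 1.35e-08). For 4 of the 80 tested genes the share of the leading transcript varied by over 50 percentage points between libraries with at least 100 counts: ATP5F1A, ATP5F1C, NDUFC1 and NDUFB6.

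**Figure D4:**
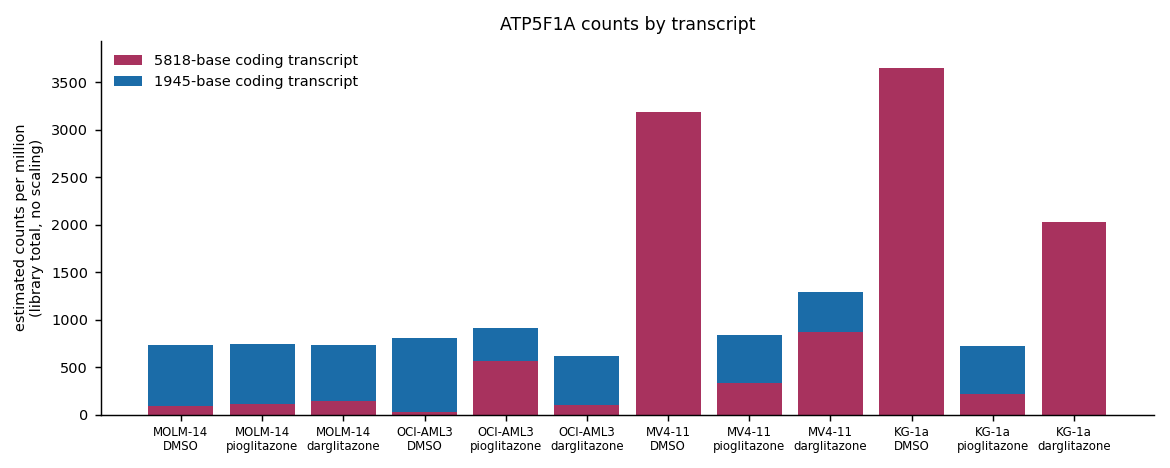
CPM of the library total, from estimated counts, for ATP5F1A in each of the 12 libraries, stacked by its 5818-base and 1945-base coding transcripts. The tall bars, MV4-11 with DMSO and KG-1a with DMSO and darglitazone, have 0 counts on the shorter transcript.

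No subunit gene passed the test for either drug. Pioglitazone against DMSO, with the line as a term, gave 0 of 80 genes at an edgeR adjusted p under 0.05, as it gave 0% of all tested genes. At an unadjusted p under 0.05, 13 subunit genes were lower and 0 higher, against 597 and 322 of the 15424. DESeq2 called 56 genes and limma-voom 0, none of them a subunit gene. Of the fitted values 65 of 80 were negative, against 8252 of 15424 among all tested genes. The median log2 fold change of the subunit genes was -0.16, against -0.02 for all tested genes. The complex medians were -0.13, -0.11, -0.21, -0.12 and -0.17 for complexes I to V.

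By line, the pioglitazone medians were -0.41 in OCI-AML3, -0.05 in MOLM-14, and -0.07 in both KG-1a and MV4-11, each from 1 library against 1. OCI-AML3 with pioglitazone is the shallowest library and carries the other-line and ribosomal reads given above; their part in its value was not tested. Without OCI-AML3 the median was -0.05, and without its and KG-1a's pioglitazone libraries -0.10. Values were negative in all 4 lines for 28 genes and positive in all 4 for 1, against 1647 and 923 of the 15424 tested genes. Protein-coding genes outside the set with a longest coding transcript under 1000 bases had a median of -0.14 with pioglitazone, against 0.02 over 4000 bases. The subunit genes under 1000 bases had a median of -0.22 and the longer ones -0.12, and the part of length was not tested.

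**Figure D5:**
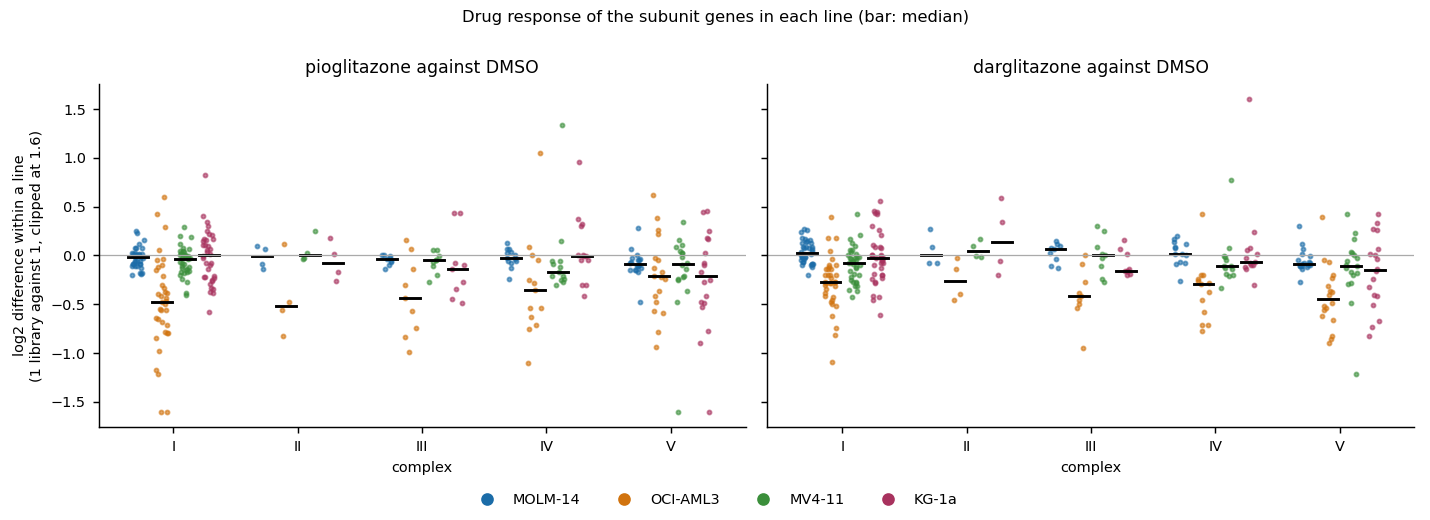
Log2 difference of each tested subunit gene between a drug library and the DMSO library of the same line, by complex; points are genes, colours are lines, bars are medians and values are clipped at 1.6. The OCI-AML3 medians lie below 0 in every complex for both drugs, and those of the other lines lie between -0.21 and 0.14.

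The genes with the smallest p-values under pioglitazone were UQCR10, a small complex III subunit, COX5B, which binds zinc in complex IV, and CYC1. UQCR10 stood at 76.5, 120, 97.2 and 86.4 CPM with DMSO and at 74.6, 67.6, 80.6 and 61.6 CPM with pioglitazone, in the order MOLM-14, OCI-AML3, MV4-11, KG-1a. Each line had less with the drug, but the groups overlapped, and the fitted log2 fold change was -0.39 (95% interval -0.66 to -0.12, edgeR adjusted p = 0.724). COX5B had a fitted value of -0.41 and line values of -0.03, -1.10, -0.21 and -0.41. CYC1 had -0.30 and line values of -0.14, -0.57, -0.20 and -0.34. The next by p in complex IV was COX4I1 (-0.26). In complexes I, II and V the 2 smallest p-values belonged to NDUFA13 (-0.25) and NDUFB7 (-0.36), SDHA (-0.20) and SDHB (-0.14), and ATP5MF (-0.28) and ATP5MC2 (-0.27). None of these passed.

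Darglitazone against DMSO gave 0 of 80 genes at an adjusted p under 0.05, against 0% of all tested genes. At an unadjusted p under 0.05, 6 were lower and 0 higher, against 254 and 271 of all; DESeq2 called 6 genes and limma-voom 0, none of them a subunit gene. Of the fitted values 68 were negative, against 7552 of 15424 among all tested genes. The median of the subunit genes was -0.11, against 0.01 for all genes. Their line medians were -0.31 in OCI-AML3, -0.06 in KG-1a, -0.07 in MV4-11 and 0 in MOLM-14. Values were negative in all 4 lines for 16 subunit genes and positive in all 4 for 0, against 1098 and 1093 of the 15424 tested genes. Without the OCI-AML3 DMSO library, the deepest, the median was -0.03. Among protein-coding genes outside the set, those under 1000 bases had a darglitazone median of -0.08, against 0.02 over 4000 bases. Subunit genes under 1000 bases had a median of -0.13 and the longer ones -0.09. The part of length was not tested.

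The smallest darglitazone p belonged to the c-ring gene ATP5MC1. It stood at 111, 95.4, 77.2 and 92.2 CPM with DMSO, at 103, 80.7, 65.1 and 87.2 CPM with pioglitazone and at 92.0, 64.9, 68.1 and 55.7 CPM with darglitazone, in the same line order. Each line had less with either drug. The darglitazone log2 fold change was -0.42 (95% interval -0.68 to -0.16, edgeR adjusted p = 1). The 3 c-ring genes together had a median of -0.27 with each drug. ATP5MF had -0.29 with darglitazone and -0.28 with pioglitazone, and UQCR10 -0.27. The other genes named by p were NDUFA9 (-0.29) and NDUFA11 (-0.26) in complex I, SDHB (-0.09) and SDHC (0.07) in complex II, UQCRH (-0.17) in complex III, and COX4I1 (-0.17) and COX8A (-0.19) in complex IV. Both comparisons share the DMSO libraries, so their likeness is not independent.

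For the mean of both drugs against DMSO, 0 of 80 genes passed, against 0% of all tested genes; 10 were lower and 0 higher at an unadjusted p under 0.05, against 473 and 277 of all. The smallest p belonged to ATP5MF, with a log2 fold change of -0.29 (edgeR adjusted p = 0.906), followed by UQCR10 at -0.33. DESeq2 called 44 genes and limma-voom 0, none of them a subunit gene. The mean response differed between lines in 0 of 80 genes, against 0.00648% of all tested genes, which is 1 gene, and 0 subunit genes had an unadjusted p under 0.05. The smallest p-values belonged to NDUFA12 and COX7C, of complexes I and IV. DESeq2 called 65 genes in this comparison and limma-voom 2, again with 0 subunit genes; the model left 3 residual degrees of freedom.

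The pair of thiazolidinediones, given at the same dose and time, was compared directly as a single pair. Darglitazone against pioglitazone gave 0 of 80 genes at an adjusted p under 0.05, against 0% of all tested genes, and 0 at an unadjusted p under 0.05. DESeq2 called 12 genes and limma-voom 0, none of them a subunit gene. The median was 0.04, against 0.03 for all genes, and turned to -0.03 without the pioglitazone libraries of OCI-AML3 and KG-1a. The smallest p-values belonged to ATP5MC1, at -0.25 (95% interval -0.52 to 0.01), UQCRC1, at 0.24 (-0.02 to 0.50), and NDUFV1, the flavoprotein of complex I, at 0.25 (-0.04 to 0.54). The test showed no difference, and intervals of this width do not show that the drugs act alike.

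Beside the nuclear genes, the 13 subunit genes of mitochondrial DNA had positive values for most members: 11 of 13 with pioglitazone (median 0.36) and 12 of 13 with darglitazone (median 0.20), with 0 called by edgeR and 4 and 3 at an unadjusted p under 0.05. With pioglitazone the line median was largest in OCI-AML3, at 0.83, where the drug library is the shallowest. It was 0.34 in MOLM-14, 0.21 in KG-1a and 0.12 in MV4-11. In OCI-AML3 with darglitazone 10 of the 13 were negative, with a median of -0.12. MT-CO1, the catalytic core of complex IV, had 0.60 with pioglitazone (edgeR adjusted p = 0.392) and 0.45 with darglitazone, positive in 4 of 4 lines each. Mitochondrial ribosomal protein genes were negative for 67 of 78 with each drug, with medians of -0.15 and -0.10 and 0 called. MRPL12 had the smallest p among them, at -0.59 with pioglitazone (edgeR adjusted p = 0.625) and -0.42 with darglitazone. Assembly factors had medians of -0.08 and -0.05 over 51 genes, led by SCO2, a copper chaperone, at -0.44 with pioglitazone (edgeR adjusted p = 0.695). Of 14 regulators 13 were tested, with medians of -0.10 and -0.08; PPARGC1A, the best known coactivator of mitochondrial genes, was below the filter. TFAM had -0.32 with pioglitazone and -0.18 with darglitazone, while NRF1, GABPA, ESRRA and PPARGC1B lay between -0.10 and 0.10. In the citrate cycle list IDH2 had -0.26 with pioglitazone and SUCLG1 -0.21 with darglitazone, with list medians of -0.04 and -0.03. SDHAF4, an assembly factor of complex II, had 0.53 with darglitazone, positive in 4 of 4 lines (edgeR adjusted p = 1). GPD2, the mitochondrial glycerol-3-phosphate dehydrogenase, had 0.47 and 0.44, with edgeR adjusted p-values of 0.735 and 1. CYCS had -0.09 and -0.12.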

How the data were processed

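RNA from 12 libraries was measured by the authors as estimated counts per transcript (deposited values, mostly not whole). The submitters' processing notes name fastp, FastQC, STAR, featureCounts and DESeq2 and the build GRCh38; the sources used here do not name the step that gave fractional counts. Such counts depend on how reads shared by transcripts were assigned. Counts were summed per gene by GENCODE 29 (99.958% of transcripts matched) and rounded. edgeR 4.0.16 (R 4.3.3) was fitted to all 12 libraries with line and treatment as terms, TMM scaling and filterByExpr (minimum count 10, total 15), leaving 6 residual degrees of freedom. P-values were Benjamini-Hochberg adjusted over all genes, with a threshold of 0.05. DESeq2 1.42.0 and limma 3.58.1 were alternatives. The fit was tested on simulated data. Members and lists were chosen with earlier results of these data known. Libraries of the same line deviated together (correlations 0.6 to 0.85 over 12 pairs), so line was kept as a block. Genes were named by a fixed rule: 4 called genes per line comparison and direction, the smallest p-values per complex for drugs, isoform sets, and the highest and lowest levels. Totals of 1.1 M to 64.24 M counts set the precision, for counting error only.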

Additional observations from a re-analysis of the deposited data

Results flagged for a closer look

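In 105 groups of 4 values, 1 per line, 11 had a value flagged by Dixon's 95% limit for 4 values. The gap to its nearest neighbour was a larger part of the group's range than that limit. Single genes in these groups were those named for called differences between lines. The chance rate of the limit, about 1 group in 20, does not apply to them. With pioglitazone, OCI-AML3 stood apart in the median log2 difference of all subunit genes (-0.41, the other lines -0.07 to -0.05), of complex I (-0.47, the others -0.04 to 0.01) and of complex II (-0.52, the others -0.07 to 0). That library held 1.1 M counts, the fewest. The DMSO libraries gave 4 of the values: SDHB at 191 CPM (others 89.6 to 101) and NDUFB5 at 87.5 CPM (others 46.5 to 48.2) in OCI-AML3, NDUFA3 at 73.0 CPM in MV4-11 (others 36.2 to 42.1) and NDUFA10 at 93.2 CPM in KG-1a (others 73.0 to 74.3). UQCRQ stood apart in KG-1a at 32.4 CPM with pioglitazone (others 83.7 to 90) and 35.6 CPM with darglitazone (others 90.7 to 95.6). ATP5F1E stood at 158 CPM in KG-1a with pioglitazone (others 104 to 112). ATP5MK stood at 94.0 CPM in MOLM-14 with darglitazone (others 40.7 to 44.8). With DMSO and pioglitazone it was higher in OCI-AML3 (80.4 and 93.9 CPM) than in MOLM-14 (76.4 and 92.9 CPM).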

How the results depend on the processing

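Of 862 recomputed summary values 757 stayed within the tolerance and 105 moved; of 1937 recomputed values of single genes and complex medians 1861 kept their direction and side of the threshold, 65 lost their call and 11 changed sign. The causes were not tested. With no scaling, the darglitazone-pioglitazone median was 0.12, lower calls were 4 in MOLM-14, 7 in OCI-AML3 and 3 in MV4-11 (median 0.18), KG-1a had 0 higher calls and a median of -0.55, and 5 genes passed for cell line by drug. With no filter, 223, 76, 88 and 148 genes passed for pioglitazone, darglitazone, the direct comparison of these drugs and their mean, and 124 for cell line by drug. ATP5F1A was the 1 subunit gene called in each of these except the direct comparison; MOLM-14 then had 3 lower calls, and KG-1a 1 higher and a median of -0.49. Cell line by drug gave 0 genes at a mean of 1 CPM, with protein-coding genes only and without robust fitting. DESeq2 called 56, 6, 12 and 44 genes for the drug comparisons in the same order and 65 for cell line by drug; limma-voom gave a darglitazone-pioglitazone median of 0, 11 lower calls in MOLM-14 and 2 genes for cell line by drug. Counts thinned to the shallowest library gave 14, 2, 1 and 5 genes for the drugs, 3801, 4244, 3826 and 5291 for MOLM-14, OCI-AML3, MV4-11 and then KG-1a, 2 for cell line by drug, and a darglitazone-pioglitazone median of -0.01. Without the pioglitazone libraries of OCI-AML3 and KG-1a, that median was -0.03, OCI-AML3 had 7 lower calls, KG-1a 3 higher, and 85 genes passed for cell line by drug. The summed level in MOLM-14 was 21779 over the longest transcripts and 20912 without ATP5F1A, and in KG-1a 18670 without it. With motifs 1 letter shorter, 42% of promoters held the ETS core and 66.7% any core. On the per-length scale, added after seeing the data like the sums without ATP5F1A, the medians were -0.02 in MOLM-14 and -0.18 in KG-1a.

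Leaving out 1 library or 1 line gave 0 to 14 genes for pioglitazone, 0 to 3 for darglitazone, 0 to 4 for darglitazone against pioglitazone (median -0.01 to 0.07), 0 to 3 for the mean and 0 to 22 for cell line by drug, with 0 subunit genes in each. MOLM-14 had 12 to 46 (16 to 36 without 1 library) higher and 2 to 10 lower calls (median 0.10 to 0.30), OCI-AML3 11 to 30 (13 to 30) and 6 to 15, MV4-11 9 to 33 (13 to 27) and 3 to 15 (median -0.02 to 0.15), and KG-1a 2 to 10 and 33 to 47; 34 to 71 genes differed between lines. Signs changed for SDHB with darglitazone (0.02 without the OCI-AML3 DMSO library or that line, -0.19 to 0.02 without 1 library) and for SDHC (-0.07 without the KG-1a darglitazone library, -0.05 without KG-1a, -0.01 thinned). For darglitazone against pioglitazone they changed for SDHA (-0.01 without the OCI-AML3 pioglitazone library or that line, -0.01 to 0.23 without 1 library, 0 without the pioglitazone libraries of OCI-AML3 and KG-1a) and, without those libraries, for NDUFS8 (-0.01), CYC1 (-0.01) and COX5B (-0.04).

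Without the line as a replicate block, the pioglitazone and darglitazone comparisons still gave 0 genes, with medians of -0.15 and -0.11, and no call changed.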
